A study of Mus musculus with 27 samples.

Results

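Ectoderm Priming cells are a state of mouse embryonic stem cells (mESCs), and the state is defined here by the cell type label that the authors deposited for each cell. The cells named Shh Signalling in their table were taken, the single label that 658 cells hold, which is 15.9% of the 4147 mESCs listed and 658 of 8784 cells once the 4637 cells of the gastruloid table are counted. The study calls the state of that size Ectoderm Priming. They coincide with 1 of 8 Leiden clusters, the groups of cells with similar transcriptomes from which the study named its 7 states. The label rests on the transcripts of the clustered cells, so what marks the state in its genes is no finding here.

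All mESCs were of the B6 line, a cross of 129S1/SvImJ and C57BL/6 mice, and were grown on gelatin. ESLIF, a serum medium with leukaemia inhibitory factor (LIF), was their routine medium, and 2i, a medium in which GSK3 and MEK are inhibited, was given as a pulse. Only ESLIF was used in condition 1. In conditions 2, 3 and 4 the final 96, 48 and 24 h of culture were in 2i. In condition 5 a 2i pulse of 48 h was followed by a return to ESLIF of the same length, and in condition 6 both steps took 24 h. Cells of each condition were sorted into 2 plates with 384 wells, which the labels call technical replicates 1 and 2. Each condition is therefore 1 culture, and the spread between its plates is technical.

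Serum-grown mESCs fluctuate between states that resist differentiation and states that begin to express genes of later lineages. The name Shh Signalling refers to the Sonic hedgehog pathway, in which the ligand Shh binds the receptor Ptch1, releases the transducer Smo and activates Gli transcription factors, and which patterns the neural tube, a derivative of the ectoderm. Markers associated with the step from naive pluripotency towards the early epiblast and ectoderm are Dnmt3b, a DNA methyltransferase that methylates new sites, Otx2, a transcription factor of the early epiblast and anterior neural tissue, and Sox2, a factor of both pluripotent and neural progenitor cells. Gene-level counts were not analysed here, so neither name was checked against these markers. mESCs divide fast, with a short G1 phase and a large share of cells that replicate DNA.

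Each cell had a deposited number of counts after removal of duplicate reads, a number of genes detected and a mitochondrial percentage. The mitochondrial percentage refers to another total than these counts. Also available were an S score, a G2M score, the phase and the position on the UMAP. The UMAP is a map in which cells with similar transcriptomes lie close together. The scores sum up the expression of genes of DNA replication (S) or of G2 and mitosis (G2M) and have no unit. In 4147 of 4147 cells the phase followed from the scores alone, as G1 where both were below 0 and otherwise as the phase with the higher score. The phase is thus a statement on transcripts and not a measurement of DNA content.

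Ectoderm Priming was almost entirely the state of the ESLIF-only culture. Replicates 1 and 2 of condition 1 held 319 and 324 of its cells, which was 90.6% of the 352 cells listed on the first plate (95% Wilson interval 87.1 to 93.2%) and 93.6% of the 346 on the second (90.6 to 95.8%). The other 15 cells came from 5 plates, with 1 and 5 cells on the plates of condition 5, 2 and 6 cells on those of condition 6 and 1 cell on replicate 1 of condition 4. No cell of conditions 2 and 3 had the label. On the UMAP nearly all Ectoderm Priming cells formed 1 group beside the Primed Pluripotency cells, which are the main state of conditions 5 and 6. Of the 658 cells, 2 had no Ectoderm Priming cell among their 15 nearest cells. Of the 698 cells of condition 1, 55 belonged to other states, and most of these lay among the Primed Pluripotency cells.

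**Figure D1:**
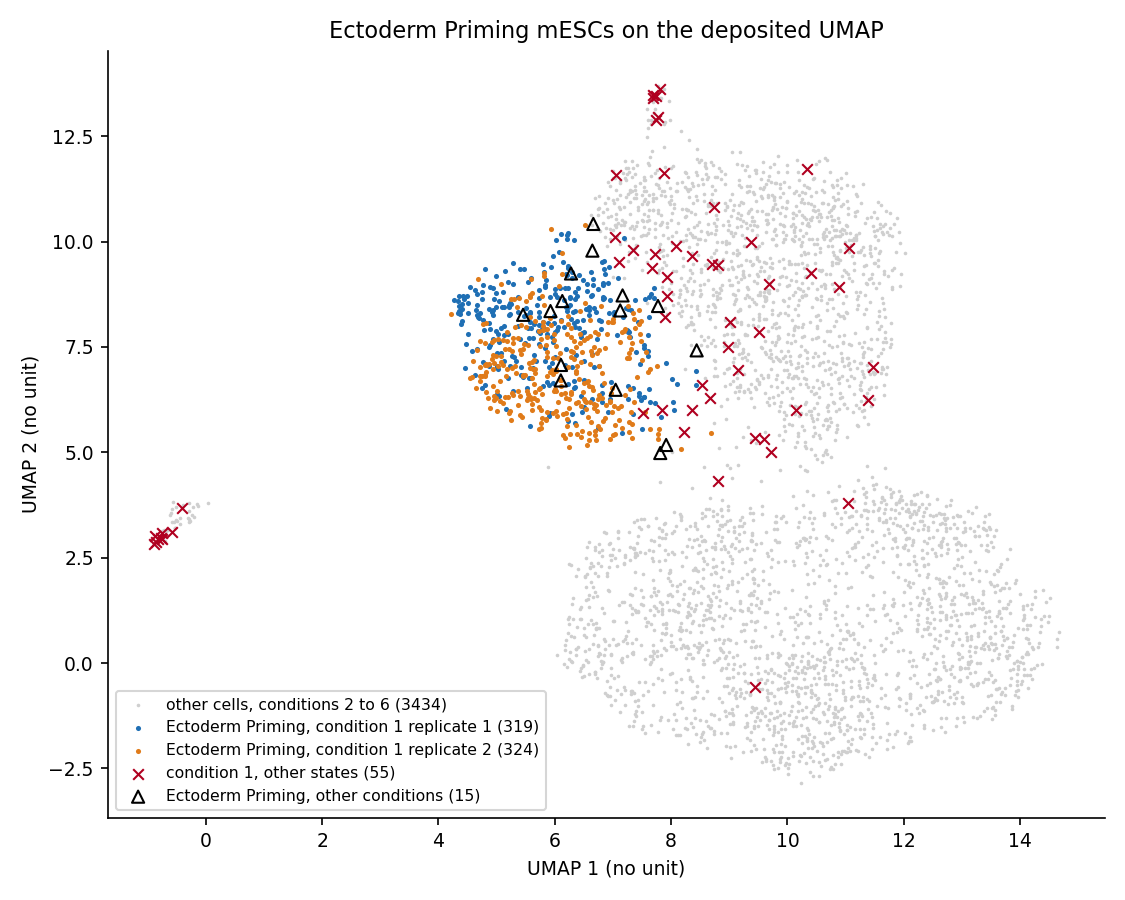
Position of the 4147 mESCs on the deposited UMAP, whose axes have no unit. Coloured points are the 319 and 324 Ectoderm Priming cells of condition 1 by plate, crosses the 55 cells of condition 1 in other states, triangles the 15 Ectoderm Priming cells of other conditions and grey points all further cells. Cells of replicate 1 lie mostly in the upper and those of replicate 2 mostly in the lower part of the group.

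To compare the state with others, the main state of each condition was summarised by plate. These were Ground State Pluripotency in condition 2, Naive Pluripotency in condition 3, Epiblast-like cells in condition 4 and Primed Pluripotency in conditions 5 and 6. The plates of condition 1 were sequenced to 17168972 and 19483881 reads, and the other plates to 8696308 to 33458578 reads. Per listed cell these were 48776 and 56312 reads, below 8 of the 10 other plates. The 2 plates with fewer reads per cell were replicate 1 of condition 2 (41628) and replicate 2 of condition 6 (28327). Their main states had medians of 7631.5 and 7690 counts, above replicate 1 but below replicate 2 of condition 1. The part of read number in the counts and genes that follow was not tested. The median Ectoderm Priming cell had 6942 counts on replicate 1 (quartiles 4871 to 9463) and 8112.5 on replicate 2 (4317 to 11662). The other 10 plates had medians between 7528 and 13766 counts, so the first value lay below all of them and the second below 7 of them. For genes per cell the medians were 3485 and 3722, against 3686 to 5146 on the other plates, of which 9 exceeded both values. The averages of the plate medians were 7527 ± 828 counts for Ectoderm Priming (SD, 2 plates) and 10091 ± 1652 for the other conditions (SD, n = 5 conditions). With the condition as the unit, an exact two-sided permutation test gave p = 0.333 for counts and for genes. Neither difference was called, and another condition deviated as much or more.

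The shares of S and G2M cells on both plates of condition 1 lay outside those of the other plates, whereas G1 did not separate the state from its neighbour. None of the 658 cells was called G1, which allows a share of up to 0.456%. In Primed Pluripotency 6 of 1396 cells (0.430%) were in G1, a share within that limit. Of the 47 G1 cells among the other 3489 mESCs, 15 were Endoderm Progenitors, 13 Ground State Pluripotency cells and 7 Naive Pluripotency cells. On replicate 1, 141 cells were called S and 178 G2M, and on replicate 2 the numbers were 138 and 186. G2M cells thus made up 55.8% (95% Wilson interval 50.3 to 61.1%) and 57.4% (52.0 to 62.7%), and S cells 44.2% and 42.6%. On the 10 other plates the main state had 41.9 to 52.2% of its cells in G2M and 47.0 to 57.7% in S, so neither share overlapped with those of Ectoderm Priming. The plates closest to it were those of condition 4, with 50.2% and 52.2% of the Epiblast-like cells in G2M. The intervals of single plates overlap with those of condition 4 and of some further plates. Among these are replicate 2 of condition 2 (42.0 to 53.0%) and replicate 1 of condition 6 (43.2 to 53.7%). All of these intervals cover counting error only.

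The average share of G2M cells was 56.6 ± 1.14% in Ectoderm Priming (SD, 2 plates) and 46.2 ± 3.11% in the other conditions (SD, n = 5), a difference of 10.4 percentage points. The plates of condition 1 differed by 1.61 points and those of the other conditions by 1.61 to 5.02 points. In the exact two-sided permutation test with the condition as the unit, p was 0.167 for this difference and for that in the share of S cells (-9.76 points), and 0.381 after Benjamini-Hochberg adjustment over 8 measures. With 1 condition against 5, this p is the smallest that the design allows, so no difference can be called at 0.05. The scores come from transcripts of the cells that were clustered. When all listed cells of each plate were taken in place of the main state, which does not use the clusters, the differences were 10.6 points in G2M and -9.77 points in S (exact permutation p = 0.167 for either).

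**Figure D2:**
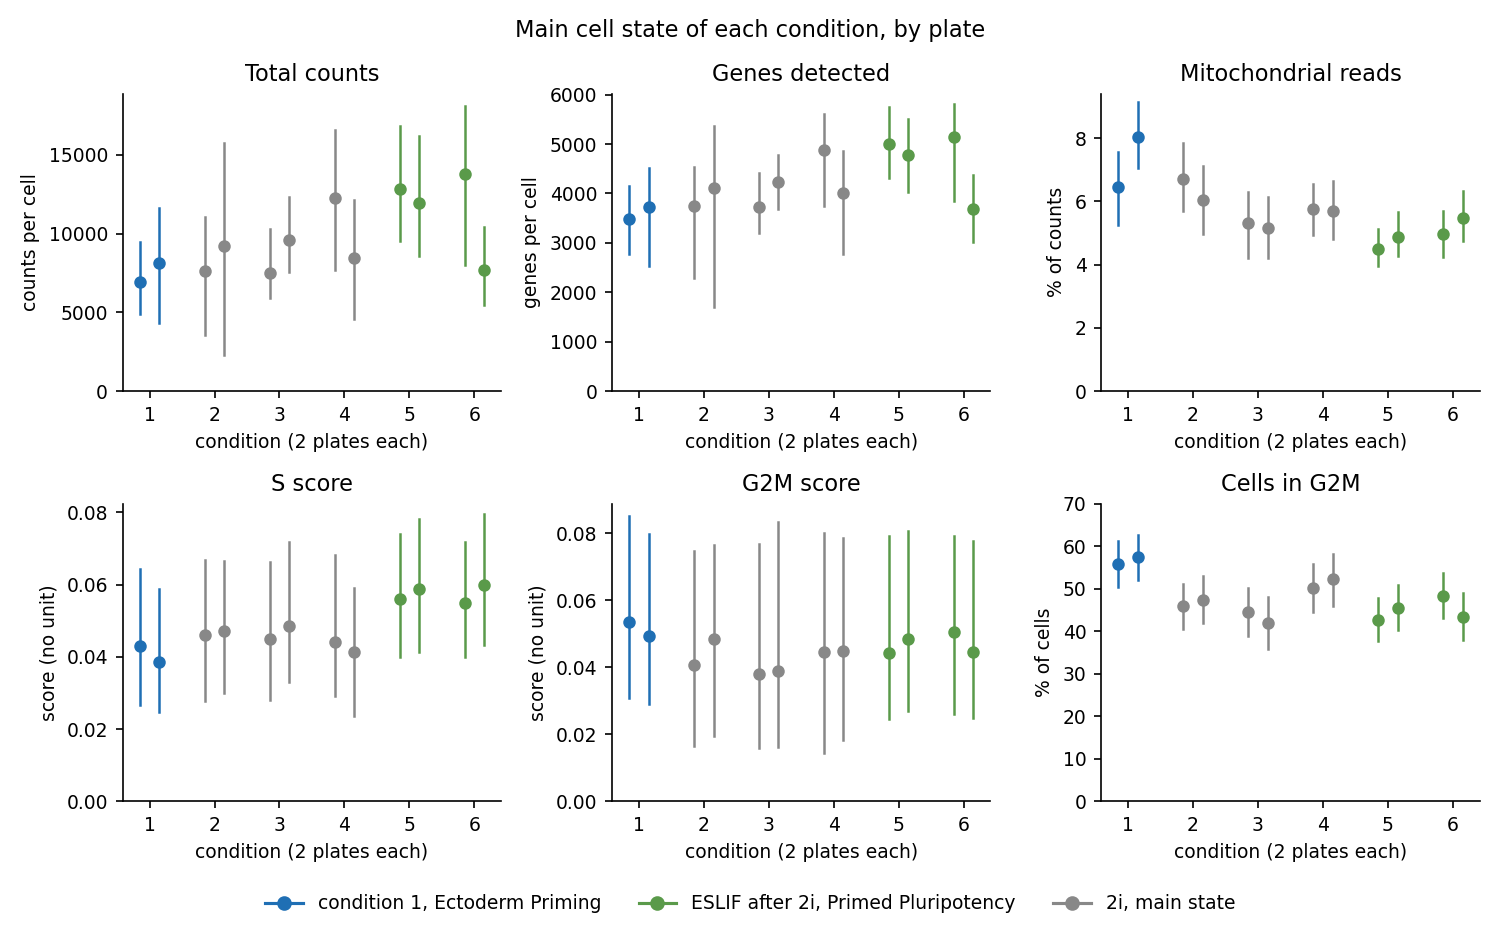
Main cell state of each condition by plate, with 2 plates for each of the 6 conditions. Points are medians with bars from the first to the third quartile, except for the share of G2M cells in percent, where bars are 95% Wilson intervals. The plates of condition 1 have the 2 highest shares of G2M cells (55.8% and 57.4%) and the mitochondrial percentage of replicate 2 (8.03%) exceeds that of every other plate.

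The scores behind these labels shifted in opposite directions. The median G2M score was 0.0536 and 0.0494 on the plates of condition 1 and ranged from 0.0379 to 0.0506 on the others, with 9 of 10 plates below both values. The median S score was 0.0431 and 0.0387 against 0.0414 to 0.0600, with 9 of 10 plates above both values. Primed Pluripotency had the highest S scores (0.0549 to 0.0600 on its 4 plates), so the state next to Ectoderm Priming on the map was not the nearest in this score. In the exact permutation test, p was 0.333 for the G2M score and 0.500 for the S score. Neither difference was called, and other conditions deviated as much or more.

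Within the state, S score and G2M score ran against each other, with Spearman's rho of -0.611 across the 319 cells of replicate 1 and -0.498 across the 324 cells of replicate 2. On the other plates rho lay between -0.570 and -0.170. These are descriptions across cells of single libraries, and the cells vary in depth (440 to 28314 counts on replicate 1 and 467 to 25260 on replicate 2). A G2M score below 0 was rare, with 7 cells on each plate (2.19% and 2.16%). The share was 2.23% to 5.08% on the plates of Primed Pluripotency and 9.76% to 15.4% on the 6 plates of the 2i conditions, so the ESLIF and 2i plates did not overlap. An S score below 0 was found in 1 and 9 cells. The call of a phase was close for some cells: the scores differed by less than 0.01 in 28 cells (8.78%) of replicate 1 and 38 cells (11.7%) of replicate 2, compared to 9.35 to 14.5% on the other plates.

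**Figure D3:**
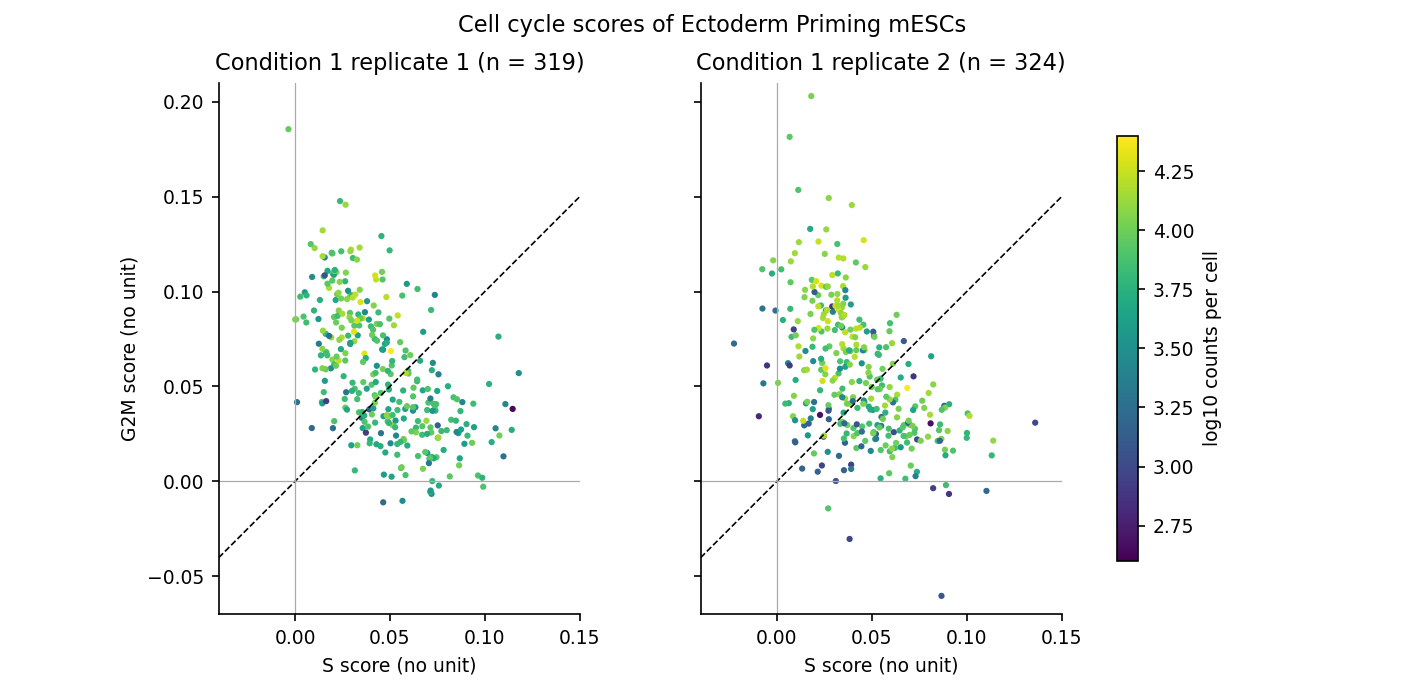
S score against G2M score of the Ectoderm Priming cells of condition 1, with 319 cells on replicate 1 and 324 on replicate 2. Each point is a cell, coloured by the log10 of its counts, and cells above the dashed line are called G2M. 178 and 186 cells lie above it, and 7 cells on each plate have a G2M score below 0.

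Ectoderm Priming cells called G2M had more counts than those called S. The medians were 7806 against 6192 counts on replicate 1 and 9767.5 against 7335 on replicate 2, which are ratios of 1.26 and 1.33. The other plates had ratios of 1.17 to 1.35, so the state did not stand apart in this. Because the phase moved with depth, the plates were compared within 3 classes of equal size, bounded at 6771 and 11789 counts per cell. In the lowest class, G2M cells made up 43.3% of 150 cells and 51.3% of 119 cells of Ectoderm Priming, and 3 of the 10 other plates exceeded the first value. In the middle class the shares were 60.6% and 50.4% of 127 cells each, against 27.9 to 50.4% on the other plates, so replicate 2 was level with the highest of them. In the highest class they were 85.7% of 42 cells (95% Wilson interval 72.2 to 93.3%) and 78.2% of 78 cells (67.8 to 85.9%), and the other plates had 50.0 to 71.6%. In the highest class both plates of Ectoderm Priming thus exceeded the other 10. Averaged over the classes, the difference from the other conditions was 15.9 points (exact permutation p = 0.167). Doublets were not removed here, and their part in these shares was not tested.

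The average mitochondrial percentage of Ectoderm Priming exceeded that of the main state in each other condition. This was not particular to the state, since the Primed Pluripotency cells on the same plates had higher medians. They were 7.89% on replicate 1 (26 cells) and 9.79% on replicate 2 (12 cells). For Ectoderm Priming the median was 6.46% on replicate 1 (quartiles 5.26 to 7.56%) and 8.03% on replicate 2 (7.04 to 9.15%). The other plates lay between 4.50% and 6.72%, with replicate 1 of condition 2 above replicate 1 of condition 1. The plates of condition 1 differed by 1.57 points, more than those of the other conditions (0.0695 to 0.671 points). The average of 7.24 ± 1.11% (SD, 2 plates) exceeded that of the other conditions, 5.45 ± 0.636% (SD, n = 5), by 1.80 points (exact permutation p = 0.167). The difference was 1.01 points with only replicate 1 of condition 1 and 2.58 points with only replicate 2.

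The plates were also compared at matched depth. In the lowest, middle and highest class of counts, the medians of Ectoderm Priming were 6.81%, 6.48% and 5.89% on replicate 1 and 8.79%, 8.11% and 7.26% on replicate 2. Replicate 2 lay above all other plates in each class, and replicate 1 was exceeded by 1, 2 and 1 of the 10 plates. Averaged over classes, Ectoderm Priming was 0.861 points above the other conditions on replicate 1 and 2.52 points on replicate 2. Within the state, the percentage fell with counts (rho of -0.153 and -0.340 across cells), and S and G2M cells differed little, with 6.52% and 6.41% on replicate 1 and 8.31% and 7.86% on replicate 2. A percentage above 10% was found in 52 of the 658 cells. For genes per cell the matched difference from the other conditions was -10.2 on replicate 1 and -310 on replicate 2 with 3 classes, and 34.7 and -159 with 5 classes. The direction on replicate 1 thus depended on the number of classes.

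**Figure D4:**
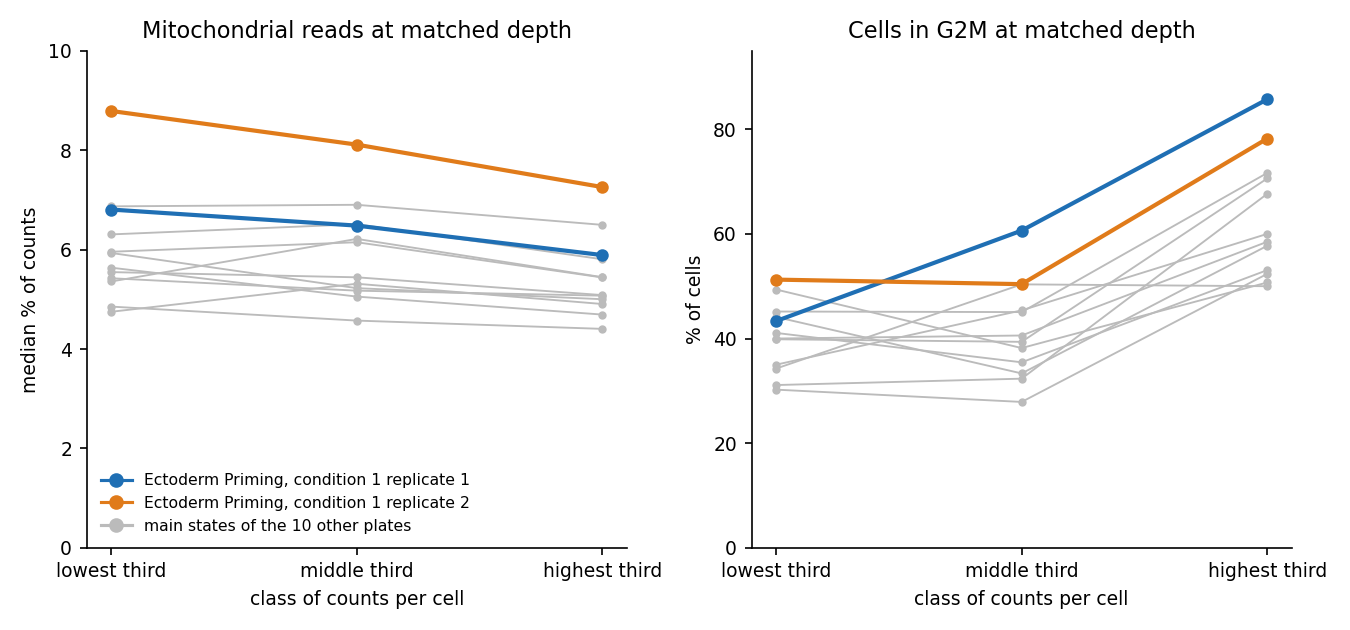
Median mitochondrial percentage and share of G2M cells in 3 classes of counts per cell, bounded at 6771 and 11789 counts. Each line is the main state of a plate, coloured for the plates of condition 1 and grey for the other 10. Replicate 2 of condition 1 has the highest mitochondrial percentage in each class, and both plates of condition 1 have the highest shares of G2M cells in the highest class (85.7% and 78.2%).

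The 55 cells of condition 1 in other states allow a comparison within the culture. They were 38 Primed Pluripotency cells, 9 Endoderm Progenitors, 6 Mesoderm Progenitors, 1 Ground State Pluripotency cell and 1 Naive Pluripotency cell. Of the Primed Pluripotency cells, 26 lay on replicate 1 and 12 on replicate 2, which is 7.39% (95% Wilson interval 5.09 to 10.6%) and 3.47% (1.99 to 5.96%) of the plates. The 2 cells with labels of 2i states had 702 and 375 counts and are among the shallowest of the table.

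Non-members had fewer counts than members on both plates. The medians were 5161 against 6942 counts on replicate 1 and 1456 against 8112.5 on replicate 2, and for genes 2918 against 3485 and 1082.5 against 3722. The share of cells with the Ectoderm Priming label was higher in deeper cells, from 62.1% of the 29 cells of condition 1 with under 1000 counts (95% Wilson interval 44.0 to 77.3%) to 86.3% of 51 cells with 1000 to 2000 counts, 88.9% of 126 cells up to 5000, 93.6% of 295 cells up to 10000 and 98.0% of the 197 deeper cells (94.9 to 99.2%). These shares describe the label along depth in a single culture and were not tested. Replicate 2 had more shallow members, with 48 cells under 2000 counts (14.8%) against 14 cells (4.39%) on replicate 1. The study states a minimum of 500 reads, and it left mitochondrial, Malat1 and ribosomal reads out of later steps. The deposited counts can thus be lower than the reads that were filtered. The 3 members with fewer than 500 counts therefore need not have failed that minimum.

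Primed Pluripotency comprises 2 Leiden clusters, and in condition 1 the 23 cells of the larger cluster had a median of 5157 counts, whereas the 15 cells of the smaller had 1217. Of the latter, 11 were under 2000 counts. The Endoderm Progenitors, with 7859 counts, matched the members in depth but had a median S score of -0.00758 and 2 of their 9 cells in G1. The Mesoderm Progenitors had a median mitochondrial percentage of 0.360%. The difference between members and non-members in the mitochondrial percentage changed direction between the plates (-0.949 points on replicate 1 and 1.39 points on replicate 2), and on replicate 2 the non-members include 4 of these Mesoderm Progenitors. Without Endoderm and Mesoderm Progenitors the members were lower on both plates, with 6.46% against 7.89% on replicate 1 and 8.03% against 9.79% on replicate 2.

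**Figure D5:**
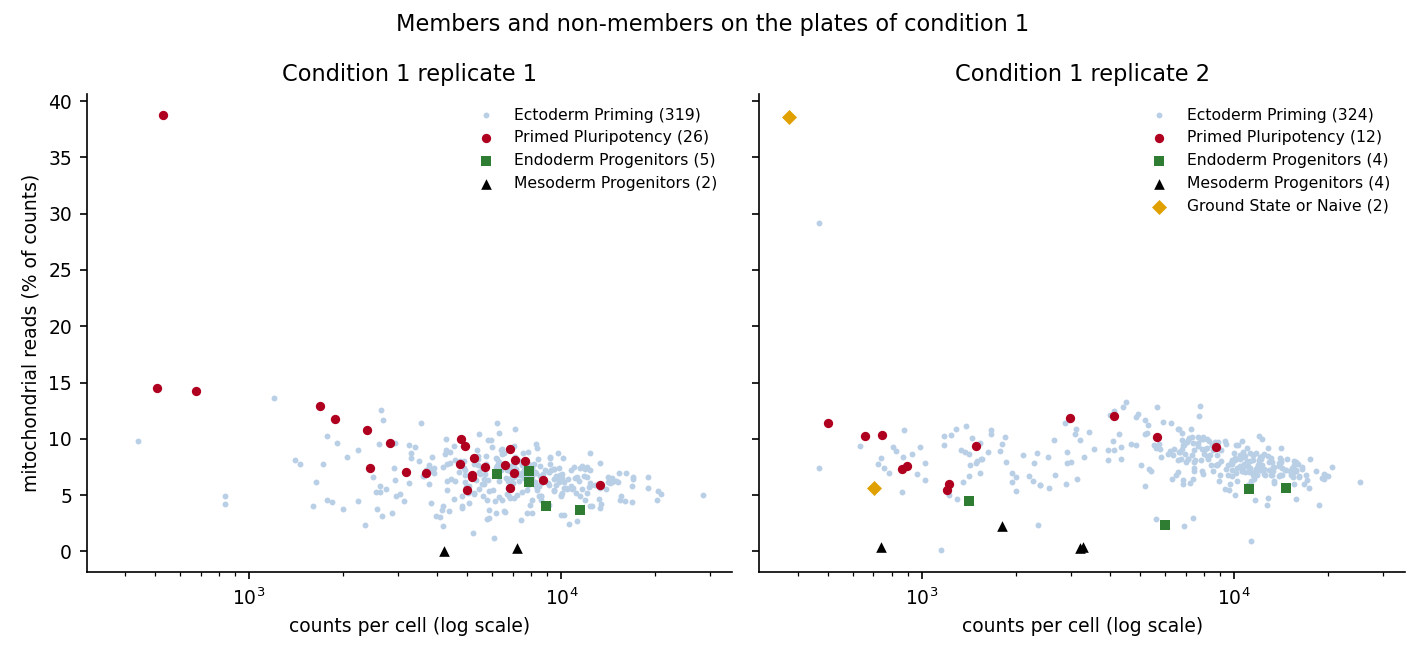
Mitochondrial percentage against counts per cell, on a log axis, for the cells on the plates of condition 1. Pale points are the 319 and 324 Ectoderm Priming cells and the other symbols are cells of other states. Most Primed Pluripotency cells lie within the cloud of Ectoderm Priming cells of their plate or to its left, and the Mesoderm Progenitors lie below it.

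Both labels occurred in condition 1 and in conditions 5 and 6, which allows label and culture to be set side by side. Cells with at least 2500 counts were taken to limit the influence of depth, a limit chosen after the data were seen. Among them, 567 Ectoderm Priming cells of condition 1 had a median mitochondrial percentage of 7.23%. The 23 Primed Pluripotency cells of the same culture had 7.73%, with none below 5.46%. These medians pool plates that hold unequal parts of the 2 groups, and they understate the gap between labels within a plate. On replicate 1 the medians were 6.44% (300 Ectoderm Priming cells) and 7.51% (19 Primed Pluripotency cells). On replicate 2 they were 7.99% (267 cells) and 11.01% (4 cells). In contrast, 1227 Primed Pluripotency cells of conditions 5 and 6 had 4.90%, and the 9 Ectoderm Priming cells of these conditions had 3.79% (range 3.09 to 5.11%). The values of the groups of 23 and 9 cells do not overlap at this limit. Without it they do, since the 14 Ectoderm Priming cells of conditions 5 and 6 then ranged from 1.13 to 9.43% and the 38 Primed Pluripotency cells of condition 1 from 5.45 to 38.7%. The share of G2M cells was 58.4% and 65.2% (15 of 23 cells, 95% Wilson interval 44.9 to 81.2%) for both labels in condition 1. It was 45.4% in Primed Pluripotency and 55.6% in Ectoderm Priming (5 of 9 cells, 26.7 to 81.1%) in conditions 5 and 6. Both intervals include 58.4% and 45.4%, so they are too wide to place the 23 or the 9 cells on either side. The median S score of Primed Pluripotency was 0.0295 in condition 1 (23 cells) and 0.0579 in conditions 5 and 6. That of Ectoderm Priming was 0.0418 in condition 1 and 0.0444 in conditions 5 and 6 (9 cells). The 9 cells were thus closer in this score to the Ectoderm Priming cells of condition 1 than to the Primed Pluripotency cells of their own conditions. Culture, plate and sequencing library cannot be told apart in this comparison.

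The 15 Ectoderm Priming cells outside condition 1 were of 2 kinds in depth. There were 6 cells with 720 to 2176 counts and 9 cells with 4258 to 18626 counts. The cell of condition 4, with 1116 counts, was among the shallow ones. By position, 8 of the 15 had only Ectoderm Priming cells among their 15 nearest cells on the UMAP, and 3 had fewer than 50% of them. A cell of condition 6 with 18232 counts had none and lay among Primed Pluripotency cells only. By phase, 8 cells were in S and 7 in G2M.

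Neighbours on the UMAP describe how closed the group is. For each cell the 15 nearest cells were taken. On average 97.5% of the neighbours of an Ectoderm Priming cell had the same label, where a random mixture of all mESCs would give 15.8%. For 595 of the 658 cells (90.4%) this held for every neighbour, compared to 93.4% of Primed Pluripotency cells, 84.6% of Ground State Pluripotency cells, 78.1% of Epiblast-like cells and 76.5% of Naive Pluripotency cells. Replicate 1 was less closed than replicate 2, with 279 (87.5%) and 308 (95.1%) such cells. The contacts to other states were nearly all to Primed Pluripotency, which took 239 of the 250 neighbour places that had another label, and the rest went to Ground State Pluripotency (8) and Epiblast-like cells (3). At the border, 11 Ectoderm Priming cells had fewer than 50% neighbours of their own state, 6 on replicate 1, 2 on replicate 2 and 3 in other conditions. From the other side, 26 of the 38 Primed Pluripotency cells of condition 1 had no Ectoderm Priming neighbour at all. The 3 that had at least 50% came from replicate 2 and had 499 to 1206 counts. The map was built from the same transcripts as the labels, so these shares describe the annotation and were not tested.

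The plates of condition 1 were only partly mixed within the group. Among neighbours with the same label, 60.5% of those of replicate 1 cells and 62.7% of those of replicate 2 cells came from the cell's own plate, where 48.4% and 49.2% would come from a random mixture of the 658 cells. The median position on the second UMAP axis was 8.12 for replicate 1 and 6.89 for replicate 2. The phase was mixed. Neighbours shared the phase of a cell in 51.7% and 49.1% of cases, against 50.7% and 50.9% in a random mixture, and the study had regressed out the phase before the map was made. Counts and mitochondrial percentage had been regressed out as well. Across all 658 cells, Spearman's rho between the counts of a cell and the median counts of its neighbours was 0.317, and 0.265 as the mean within the plates. For the mitochondrial percentage rho was 0.242 across all cells and 0.110 within plates. The corresponding values for counts across cells were 0.454 in Primed Pluripotency, 0.565 in Ground State Pluripotency, 0.411 in Epiblast-like cells and 0.0817 in Naive Pluripotency.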

How the data were processed

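Single cells were profiled with CEL-seq2, a plate-based protocol with molecular identifiers, on 12 plates. The authors demultiplexed the reads, trimmed them with cutadapt 4.1, mapped them with STAR 2.5.3a to GRCm38 with masked strain differences, counted them per gene and removed duplicates. They filtered cells on reads, genes and mitochondrial share (at most 40% in mESCs), regressed out counts, mitochondrial share and phase, and clustered the cells. The deposited total count and gene count per cell are whole numbers that were not normalized. Mitochondrial reads were deposited as a fraction and are given here in percent. In shallow cells this fraction times the deposited count is not a whole number, so it refers to another total. The study left mitochondrial, Malat1 and ribosomal reads out of its later steps, and the total behind the fraction is not given. Figure axes that read % of counts show this deposited fraction. UMAP positions are as deposited. The S score and the G2M score were made by the authors, and their gene lists are not given in the sources used here. Read counts per library were deposited in a sequencing report, and 3 of its library names fitted none of the samples and stayed out.

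Groups were taken from the sample labels. Medians and shares were computed per plate, averaged per condition and compared with an exact two-sided permutation test of condition 1 against the 5 others. Shares have 95% Wilson intervals, and for a share of 0 the upper limit was set at 3 cells. These express counting error alone. Cells were not treated as replicates. Gene-level counts were not analysed here, so cells were neither thinned nor checked for doublets. Cell names reuse the well numbers of a plate, and 324 numbers occur on both plates of condition 1. No gene was named by its value. Alternatives were means for medians, all cells of a plate, limits on counts and mitochondrial reads, other neighbour numbers and classes, and leaving out plates. The members, measures and alternatives were chosen with earlier results of these data known. Python 3.11.15, scipy 1.17.1 and pandas 2.3.3 were used. The permutation and neighbour functions were tested on simulated data.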

Additional observations from a re-analysis of the deposited data

How the results depend on the processing

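The 8 differences between Ectoderm Priming and the other conditions kept their direction under the alternatives run: means in place of medians, all cells of a plate, at least 1000 counts, at most 20% mitochondrial reads, conditions 5 and 6 only, 3 classes of counts (added after the data were seen, for 6 of the measures), and each plate left out in turn. With single plates left out they ranged from -3172 to -1956 counts, -874 to -582 genes, 1.01 to 2.58 points in mitochondrial reads, -0.0116 to -0.00715 in the S score, 0.00513 to 0.00928 in the G2M score, and, in percentage points, -0.672 to -0.614 for G1, -10.6 to -8.96 for S and 9.60 to 11.2 for G2M. No p can pass 0.05 here, so these tests say nothing about stability. Within conditions 5 and 6 only, the smallest p is 0.333. With the replicate number as a block, the differences were the same as without it (10.4 points in G2M, 1.80 points in mitochondrial reads), since each condition has both numbers. Replicate 1 had more counts in 3 of 6 conditions, which cannot show whether plates with the same number share a batch.

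The difference between members and non-members of condition 1 depended on which non-members were taken. Without Endoderm and Mesoderm Progenitors, the mean over plates moved from 0.219 to -1.59 points in mitochondrial reads and from 0.00523 to -0.000178 in the G2M score, and with at least 1000 counts the G2M score difference was 0.0177. With 1 plate each, the differences were 1781 and 6657 counts, 567 and 2640 genes, -0.949 and 1.39 points in mitochondrial reads, 0.0187 and 0.00710 in the S score, 0.00187 and 0.00860 in the G2M score, and -9.09 and 0 points in G1. On the UMAP, the share of neighbours with the same label was 96.9% and 99.0% on single plates, that from the own plate 60.5% and 62.7%, and that of the same phase 51.7% and 49.1%. They changed by less than the spread between the plates with 5 or 50 neighbours or at least 1000 counts. The matched-depth differences with 5 classes were 1.63 points in mitochondrial reads and -62.4 genes, against 1.69 points and -160 genes with 3.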
